A study of Mus musculus with 118 samples.

Results

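The cytosolic ribosomal protein genes are described here in single SOM+ interneurons of layers 4 and 5 (L4, L5) of the mouse primary visual (V1) and somatosensory (S1) cortex. Members were the entries of the deposited count table whose symbol begins with Rpl or Rps and a digit, without the Rps6k kinases. The rule took 90 of 24490 rows, which hold 89 of 23998 symbols because Rpl30 has 2 rows that were summed. Of the 89 members, 73 are ribosomal proteins of the cytosol (30 Rps genes of the small subunit and 43 Rpl genes of the large subunit) and are called core members. The other members are 9 related copies (paralogs), 6 pseudogene entries and Rps19bp1, which encodes a protein that binds Rps19 and is not part of the ribosome. The label therefore holds for 73 of the 89 members.

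Ribosomal proteins assemble with ribosomal RNA into a small subunit, which reads the messenger RNA, and a large subunit, which joins amino acids and passes the new chain out through a tunnel. Each core protein is present at about a single copy in a ribosome, so their genes are commonly treated as a coordinated set. Many of their messenger RNAs begin with a run of pyrimidines (C and T), the terminal oligopyrimidine motif, through which the mTOR pathway can tune their translation. Their genes are also known for many processed pseudogenes in mammalian genomes, which complicates the placing of short reads.

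The cells came from adult SOM-Cre/Ai9 mice, in which Cre driven from the somatostatin locus turns on tdTomato in cells that express the gene or did so earlier. They were recorded with a patch pipette, their content was drawn out, and cDNA was made from it without molecular identifiers (Patch-seq). The 4 groups differ in area and layer alone by their labels, and 9 cells were left out. The kept cells were 42 of 44 V1 and 34 of 39 S1 cells of L4, with 17 of 19 V1 and 16 of 16 S1 cells of L5. A kept cell had at least 1500 genes with a count, at least 1 Sst count, and no more counts on Slc17a7 (the vesicular glutamate transporter of cortical excitatory cells) than on Gad1 plus Gad2 (the GABA-synthesizing enzymes). The labels name no animal, so each group is 1 sample. Cells are not replicates, so no test was run and the SDs below describe the spread over cells or over the 9 dates given in the sample titles. All L5 cells belong to dates 3 to 6, and dates are not known to be separate animals. Kept cells had between 97904 and 3295232 counts, with a median of 1111833. All 8 SOM interneuron markers were read in at least 1 cell of every group, but Sst, Gad1 and Gad2 among them were used to keep cells. By the same measure, all 6 excitatory neuron markers were read in V1 L4 and in S1 L5.

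The start sites of a few members show what the pyrimidine run looks like in genes at opposite ends of the expression range. Each line below gives 30 bases on the strand of the gene, 15 on each side of the RefSeq transcript start (GRCm38.p6), and the capitals mark an unbroken run of at least 8 C or T that overlaps the stretch from 5 bases before to 10 bases after the start.
Rps9: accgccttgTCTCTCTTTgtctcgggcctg
Rpl14: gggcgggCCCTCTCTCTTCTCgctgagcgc
Rps24: cccgcgctggggTCCTTCCTTgcgcgttga
Rpl15: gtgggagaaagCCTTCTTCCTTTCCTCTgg
Rps27: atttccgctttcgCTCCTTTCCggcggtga
Rps3: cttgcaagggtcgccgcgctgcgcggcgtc
Rps15: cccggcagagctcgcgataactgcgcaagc
Rpl11: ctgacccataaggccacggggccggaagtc
In order, these windows lie at chr7:3704026-3704055 (plus strand), chr9:120571502-120571531 (plus), chr14:24490663-24490692 (plus), chr14:18270972-18271001 (minus), chr3:90213634-90213663 (minus), chr7:99483695-99483724 (minus), chr10:80292416-80292445 (plus) and chr4:136053379-136053408 (minus). Of the 54 core members with a RefSeq start, 23 (42.6%) had such a run, against 2300 of 17492 (13.1%) protein-coding genes of the same table. The share was 10.3% in 68 mitochondrial ribosomal protein genes, 12.3% in 73 respiratory chain genes and 12.1% in 33 proteasome genes. Rps9, one of the most abundant members by length, had a run of 9 bases, and so did Rps27, which had no read in most cells. Rps3 and Rps15, which were also abundant, had none in this window, and neither did Rpl11, which was read in 53 cells. The run was 14 bases long in Rpl14, 17 in Rpl15 and 9 in Rps24. Over the 54 core members, the length of the run and the median level per length were nearly unrelated (Spearman's rho of 0.03, taken across genes).

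Ribosomal protein genes took a small part of the counts of these cells. Their share of a cell's counts was 0.293% ± 0.136 over all kept cells (mean ± SD) and ranged from 0.060% to 0.9298%. In V1 L4 the lowest, median and highest cell had 0.107%, 0.252% and 0.689%. In S1 L4 they had 0.0718%, 0.245% and 0.433%. The V1 L5 cells spread furthest, from 0.060% through a median of 0.343% to 0.9298%, while the S1 L5 cells lay between 0.125% and 0.407% with a median of 0.310%. The 4 groups overlapped over most of their range, and the 5 highest cells were all from V1. The mean of L4 cells was 0.285% ± 0.113 in V1 (n = 42) and 0.256% ± 0.0978 in S1 (n = 34). That of L5 cells was 0.399% ± 0.223 in V1 (n = 17) and 0.276% ± 0.0883 in S1 (n = 16). Pooled over cells, members held 153772 of 53145884 counts in V1 L4, or 0.289% with an exact 95% Clopper-Pearson interval of 0.288 to 0.291%, which covers counting error only and is far narrower than the spread over cells. The share in a cell hardly followed its total count (Spearman's rho of 0.04 over all kept cells) and was weakly related to its number of detected genes (rho of 0.30). Both relations are over cells that share groups and dates.

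**Figure D1:**
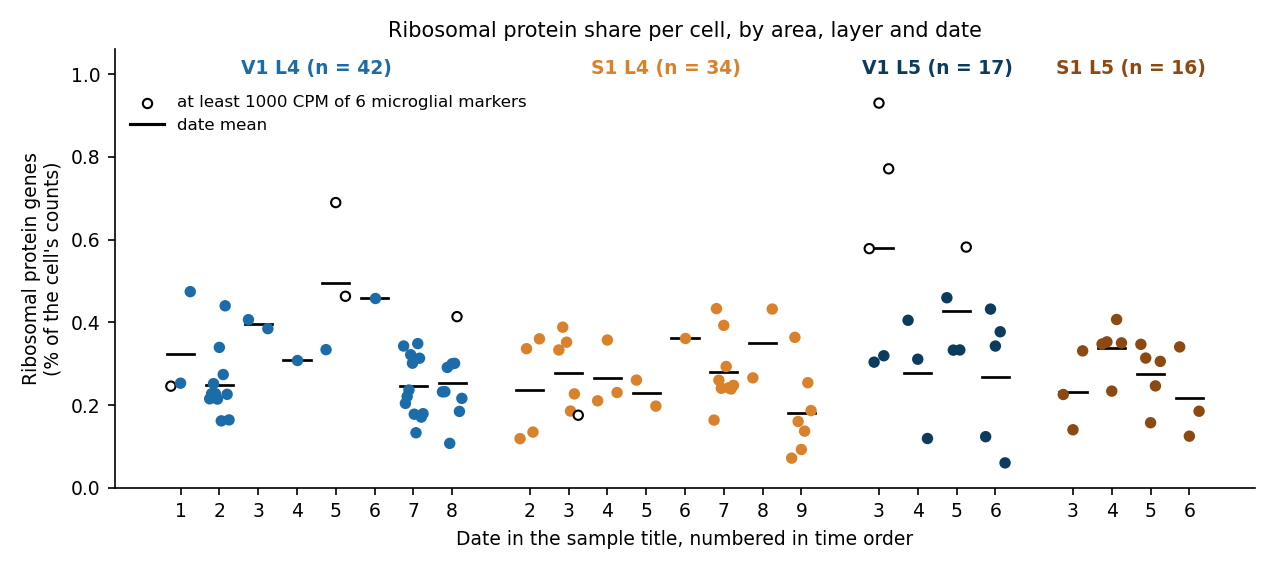
Share of each kept cell's counts on the 89 ribosomal protein members (y axis, %), by group and by date in the sample title (x axis); bars are date means, and open circles are cells with at least 1000 CPM of 6 microglial markers. The V1 L5 cells of date 3 have a mean of 0.580% and the S1 L5 cells of the same date a mean of 0.232%, and the 5 highest cells of all, from dates 3 and 5, are open circles.

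Over all kept cells, dates held a larger part of the variation in V1 than in S1 of the same layer. In V1 L4 the means of dates with at least 2 cells ran from 0.246% (date 7) to 0.495% (date 5), and differences between dates held 41.5% of the sum of squares against 12.8% of the degrees of freedom. In V1 L5 the date means ran from 0.267% to 0.580% and held 37.5% of the sum of squares against 18.8%. The S1 values were 22.03% against 18.8% in L4 and 30.5% against 20% in L5. Within a date the SD over L4 cells was 0.0916 percentage points in V1 and 0.0955 in S1. Over L5 cells it was 0.195 in V1 and 0.0823 in S1, so the V1 L5 cells also varied most from cell to cell.

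Over all kept cells the S1 mean lay under the V1 mean in either layer, by less than the spread over dates. In L4 the difference of means was -0.0294 percentage points, and within the 5 dates with at least 2 cells of both areas it was -0.0536 ± 0.142 (mean ± SD over dates), lower in S1 on 3 dates and higher on 2. Date 3 gave 0.277% in S1 (6 cells) and 0.396% in V1 (2 cells), whereas date 8 gave 0.349% in S1 (2 cells) and 0.253% in V1 (9 cells). In dates 1 to 6 the L4 difference was -0.0575 and in dates 7 to 9 it was -0.000306. These 2 values include dates with L4 cells of a single area. Date 1 holds only V1 L4 cells, and date 9 only S1 L4 cells (7 cells, mean of 0.181%). On the later dates with both areas, S1 was higher by 0.0332 (date 7) and by 0.0958 (date 8). Leaving out date 5 or date 9 brought the L4 difference to -0.0115 or -0.00988, and leaving out date 7 to -0.0535. In L5 the difference was -0.123, and within 4 dates it was -0.123 ± 0.174, with S1 lower on 3 dates and higher on 1. Date 3 carried most of it: 0.232% in S1 (3 cells) against 0.580% in V1 (5 cells), and without date 3 the L5 difference was -0.0377. Without date 4, in which S1 was the higher area, it was -0.178.

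Between layers no direction held over dates. In V1 the mean was 0.399% in the 17 L5 cells and 0.435% in the 7 L4 cells of the same dates. Date 3 had the higher share in L5 (0.580% against 0.396%) and date 5 in L4 (0.495% against 0.427%), which gave 0.0581 ± 0.179 over these 2 dates. The pooled difference was -0.0361, and it was -0.128 without date 3, 0.000590 without date 5 and 0.0226 without date 6. Over all dates, L5 was higher than L4 by 0.113 percentage points, the opposite sign to the comparison within the dates that hold L5 cells. In S1 the mean was 0.276% in 16 L5 cells and 0.273% in 12 L4 cells, a difference of 0.00219, with 0.0242 ± 0.0612 within 3 dates. Without date 4 it was -0.0288, without date 5 -0.00598, without date 3 0.0157 and without date 6 0.0239.

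Microglial markers moved with the cells of highest share. The list holds Cx3cr1, P2ry12, Csf1r, C1qa, C1qb and Tmem119, genes of the resident immune cells of the brain, and its summed level was 0 in 34 of the kept cells. The 5 cells with the highest ribosomal protein share had 2764, 2710, 1211, 1542 and 1093 CPM (counts scaled to a common library size) of these markers. The highest cell, from V1 L5 on date 3, had 55 members detected among 1978 genes and carried 1191 CPM of Csf1r, a growth factor receptor, and 978 CPM of C1qb, a complement component. The second, of the same group and date, had 839 CPM of Cx3cr1, the fractalkine receptor, and 755 CPM of Csf1r among 7562 detected genes. The summed level reached 1345 CPM in L4 of V1, 1190 in L4 of S1, 2764 in L5 of V1 and 725 in L5 of S1, from 0 in each. S1 L5 had no read of P2ry12 and some of the other 5 markers, and the other groups had reads of all 6.

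Of the 9 cells with at least 1000 CPM, 4 were from V1 L4, 1 from S1 L4, 4 from V1 L5 and none from S1 L5. Their shares ran from 0.176% to 0.9298% with a mean of 0.539%, and the other 100 cells ran from 0.060% to 0.474% with a mean of 0.270% ± 0.0966. Without these 9 cells, a setting chosen after the values were seen, V1 L5 had 0.301% ± 0.124 (n = 13) beside 0.276% in S1 L5, and the L5 difference between areas shrank from -0.123 to -0.0259. The L4 difference shrank from -0.0294 to -0.00928. The difference between layers went from -0.0361 to -0.0770 in V1 and from 0.00219 to -0.00671 in S1, where its sign turned. In the cells with no count on a microglial marker, also chosen after the values were seen, S1 was higher than V1 in L4 by 0.0144 (0.268% in 10 cells against 0.253% in 12), and in L5 the difference was -0.0334. Without the 9 cells of at least 1000 CPM, the part of the sum of squares between dates in V1 L5 went from 37.5% to 12.9%. In V1 L4 it went from 41.5% to 27.05%. In S1 it was then 30.5% in L5 and 24.6% in L4, so in L5 the larger part was in S1. The part of the degrees of freedom between dates was not computed without these cells, so these values have no base beside them. In the 100 other cells, the share and the marker level were nearly unrelated (rho of 0.04). The part of microglial RNA in the share of single cells was not tested.

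**Figure D2:**
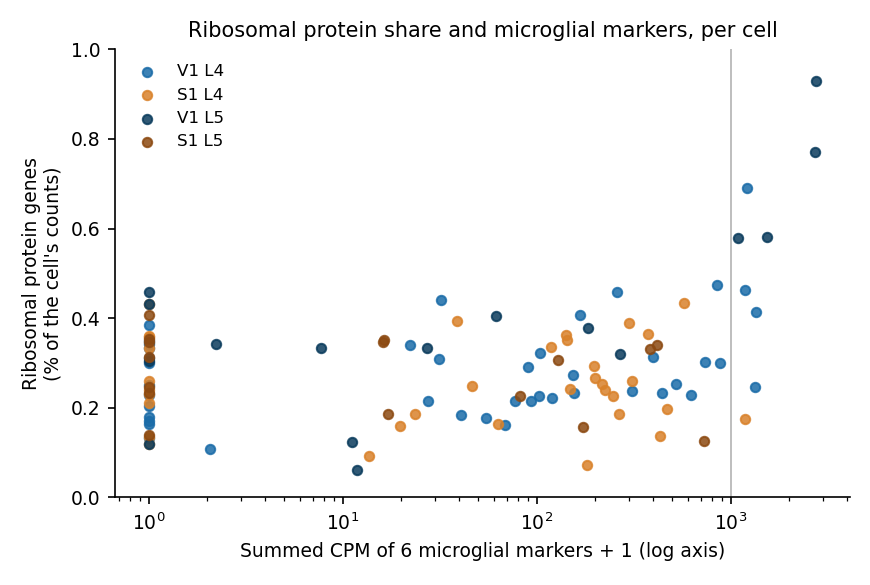
Ribosomal protein share of each kept cell (y axis, % of its counts) against the summed level of 6 microglial markers (x axis, CPM + 1, log axis), coloured by group; the vertical line marks 1000 CPM. The 9 cells to the right of the line include the 5 highest cells, from 0.578% to 0.9298%, while the 34 cells without a marker count lie at the left edge.

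Lists of other cell types were also read in these cells. The pooled level of 6 oligodendrocyte markers was 1115 CPM in S1 L4 and 731 in S1 L5, against 267 in V1 L4 and 239 in V1 L5, and rho with the ribosomal protein share over cells was 0.04. For 6 astrocyte markers rho was 0.19, as it was for the microglial markers over all kept cells, with pooled levels of 388 CPM in V1 and 295 in S1 for L4, and of 136.2 and 142.96 for L5. Within V1 L5 rho was 0.50 for astrocyte and 0.58 for microglial markers, and the 3 highest cells of all carried 633, 1222 and 954 CPM of astrocyte markers. For astrocyte markers it was 0.35 in V1 L4, 0.27 in S1 L4 and -0.003 in S1 L5. For microglial markers it was 0.38 in V1 L4, 0.04 in S1 L4 and -0.34 in S1 L5. Over all kept cells, rho was 0.10 for excitatory neuron, 0.08 for endothelial and 0.08 for other interneuron markers. Rn45s, the ribosomal RNA precursor, took 6.41% ± 4.17 of a cell's counts, with a rho of -0.03. The part of these levels in the share was not tested.

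Cells with more ribosomal protein reads also had more reads of other housekeeping gene sets. Over all kept cells, rho between the ribosomal protein share and the share of 93 respiratory chain genes was 0.66. It was 0.62 for 77 mitochondrial ribosomal protein genes, 0.62 for 15 translation factors whose messages are also known to begin with a pyrimidine run, and 0.52 for 40 proteasome genes. These shares come from the same libraries and sum to the same total. The members' share of counts was close to that of the mitochondrial ribosomal protein genes (0.276% ± 0.107) and below those of the proteasome (0.483% ± 0.164) and of the respiratory chain (1.25% ± 0.586). A list of 16 ribosome assembly factors, among them Fbl and Ncl, had a rho of -0.02, and a list of 13 mTOR pathway genes a rho of 0.04.

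No cell could have a read on every member, since 3 of the 89 members had no count in any kept cell. A kept cell had 62.3 ± 12.5 of the 89 members detected, from 32 to 81. For L4 the numbers were 62.0 ± 12.1 in V1 and 61.5 ± 11.8 in S1, and for L5 65.0 ± 13.98 in V1 and 61.6 ± 14.01 in S1. After thinning to 250000 counts, with 15 cells deep enough in either area of L5 and all cells of L4, they were 53.4 ± 10.6 and 51.4 ± 11.2 for L4 and 60.2 ± 10.9 and 53.1 ± 11.6 for L5. The ranges of all 4 groups overlapped. Rpl41, which encodes the shortest ribosomal protein, was the only core member read in all kept cells. In all, 24 core members were read in at least 100 cells, and 12 in fewer than 60.

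A few members held most of the reads. Rpl4, whose protein reaches into the wall of the exit tunnel, took 57285 of the 404477 pooled member counts (14.2%). Rps3, at the messenger entry of the small subunit, took 8.67%, and Rpl8, a core protein of the large subunit, 7.01%. The 10 most counted members took 51.9%, and this part was between 51.3% and 53.4% in each group. Small subunit core members took 41.8% and large subunit core members 48.6% of member counts. The 26 core members that did not reach 32 counts in at least 10 cells, the filter used for the member comparisons, took 3.77% together.

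Levels per length are given in RPKM (reads scaled by transcript length and library size), and Rpl4 led here too. It had a median of 270 RPKM over all kept cells. Its lowest, median and highest values were 0, 270 and 856 RPKM in V1 L4, 0.607, 237 and 605 in S1 L4, 34.4, 345 and 755 in V1 L5, and 0, 264 and 476 in S1 L5. All groups overlapped widely, and Rpl4 was read in every S1 L4 and V1 L5 cell. Rpl8 followed with group medians of 203, 176.8, 293 and 269 RPKM in the same order. Rpl22l1, a paralog of Rpl22, and Rps9, a protein of the small subunit, were also among the highest 5, with medians of 125.8 and 120.5 RPKM over all kept cells.

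The V1 L5 cells had the highest group median for 39 of the 54 members that passed the filter, S1 L5 for 9, V1 L4 for 3 and S1 L4 for 2, while for Rps4l all medians were 0. Without the 9 cells of high microglial marker level, V1 L5 was the highest for 25, S1 L5 for 17, and V1 L4 and S1 L4 for 6 each. The same counts over all genes were not computed, so these numbers have no base beside them. The median over these members of the group median was 37.9 RPKM in V1 L5, 32.5 in S1 L5, 25.3 in V1 L4 and 21.05 in S1 L4. Neighbouring groups in this order overlapped cell by cell in every member named above.

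**Figure D3:**
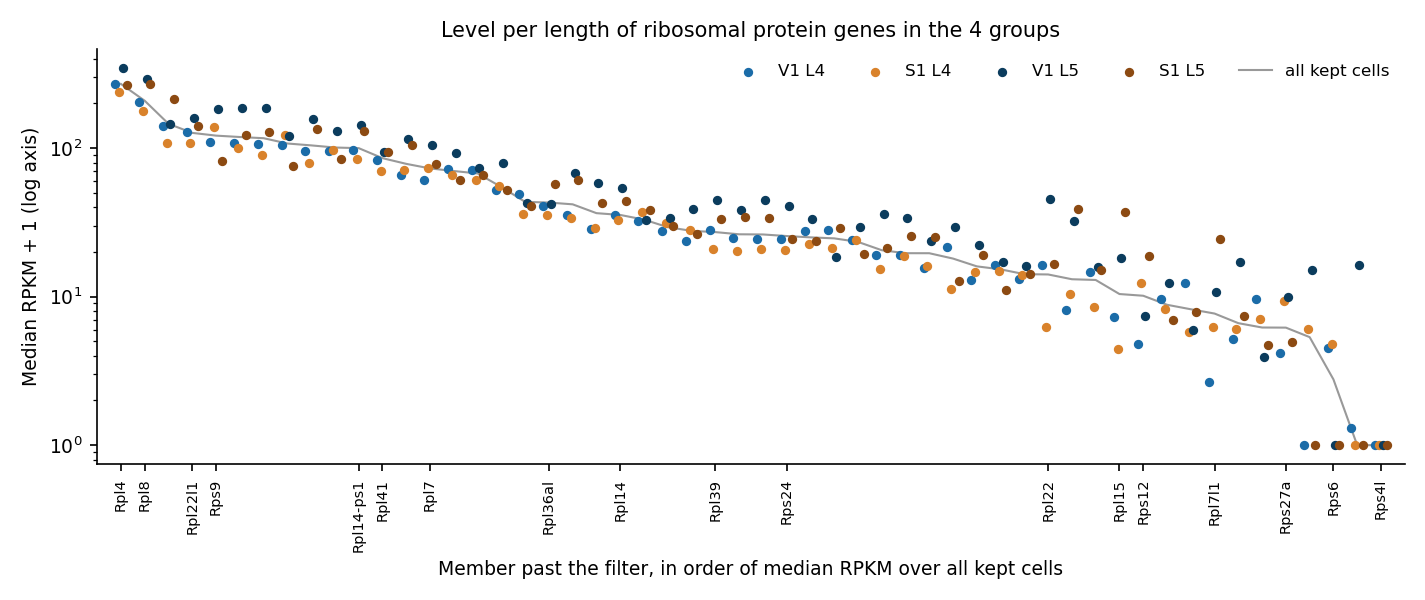
Median RPKM + 1 (y axis, log axis) of the 54 members that passed the filter, ordered by their median over all kept cells (grey line), with 1 point per group. Levels run from 270 RPKM for Rpl4 to 0 for Rps19bp1 and Rps4l. V1 L5 has the highest median for 39 members, a count that was not made over all genes.

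At the low end, 12 core members had a median of 0 RPKM over the kept cells, among them Rpl11, Rpl17, Rpl23a, Rpl26, Rpl31 and Rps27. Rpl5 and Rpl11, the proteins that escort the 5S ribosomal RNA, were read in 74 and 53 cells with medians of 3.06 and 0 RPKM. Among the 8 listed proteins around the tunnel exit (Rpl17, Rpl19, Rpl22, Rpl23a, Rpl26, Rpl31, Rpl35 and Rpl39), 3 passed the filter. Rps6, the small subunit protein phosphorylated by S6 kinase, had a median of 1.77 RPKM and was read in 62 cells. Rps27a, which is made as a fusion with ubiquitin, had a median of 5.19 RPKM in 70 cells. Core members that share a ribosome thus had medians per length from 0 to 270 RPKM in these libraries.

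The paralogs differed from their parents in both directions. Rpl22l1 (chr3:28805436-28807424) exceeded Rpl22, with medians of 125.8 and 13.1 RPKM, and was read in 99 against 92 cells. Rpl36al was at 42.05 RPKM and its parent Rpl36a at 0, read in 89 and 45 cells. Rps27l was at 4.34 RPKM in 61 cells and Rps27 at 0 in 50. At least 75% of the 75-base stretches of the Rpl36a and Rps27 transcripts also occur in transcripts of other genes. For the parents Rpl22 and Rpl7 this part is under 10% and between 25% and 50%. The part of read placement in these differences was not tested. Rpl7l1 was lower than Rpl7 (6.70 against 72.1 RPKM). Rpl3l, known from heart and skeletal muscle, was read in 9 cells with 277 counts, beside 4400 counts of Rpl3. Rpl39l, known from testis, had 2 counts in 1 cell, and Rpl10l and Rps27rt had none in any kept cell. Rps4l, which the GENCODE annotation types as a processed pseudogene, was read in 39 cells with 3342 counts and its parent Rps4x had 14676 counts.

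Pseudogene entries were mostly near 0. Rpl14-ps1 was the exception, with a median of 99.05 RPKM against 34.5 for Rpl14, and the 2 entries moved together over cells (r of 0.83 in log2(CPM + 1), the highest of all member pairs). Of the 75-base stretches of the Rpl14-ps1 transcript, 68.7% also occur in transcripts of other genes, with Rpl14 first among them, and 42.6% of those of Rpl14. The 398 stretches that both entries share cannot place a read of that length, whereas 181 of the 579 stretches of Rpl14-ps1 and 537 of the 935 of Rpl14 occur in no other gene. How the deposited counts treat reads with several places is not given in the sources used here. Rps15a-ps4 had 385 counts, Rps15a-ps6 282, Rps19-ps3 54, Rpl31-ps12 31 and Rpl34-ps1 none. Rps19bp1 was read in 52 cells.

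The 4 core members on the X chromosome ranged from abundant to rare. Rps4x had 106.5 RPKM at the median, Rpl39 26.2, Rpl10 7.23 and Rpl36a 0. Ribosomal proteins that the symbol rule leaves out had levels within the members' range: Rplp1 and Rplp0 of the stalk were at 156 and 36.1 RPKM, Gnb2l1 (the scaffold protein Rack1) at 96.8, Rplp2 at 30.5, Fau at 7.93 and Rpsa at 6.38. The 7 left-out genes together took 0.0347% (V1) and 0.0313% (S1) of counts in L4, and 0.0540% (V1) and 0.0314% (S1) in L5. The V1 L5 mean includes the 4 cells of at least 1000 CPM of microglial markers, which had 0.173%, 0.146%, 0.0820% and 0.0639%. The mean without these cells was not computed.

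Among core members, those with more sequence shared with other genes had lower levels. For each member, all 75-base stretches of its transcript, the read length of the libraries, were looked up in 141767 GENCODE transcripts. A median of 40.96% of the stretches of a member occurred exactly in the transcript of another gene at another place, and the value was over 50% for 35 of 89 members. The medians were 0% for respiratory chain, proteasome and mitochondrial ribosomal protein genes. In Rps3 no stretch was shared, in Rpl8 4.89% and in Rpl4 8.47%, and these were the 3 most counted members. The 11 core members with under 10% shared had a median level of 69.2 RPKM, and the 16 members with at least 75% shared had 5.41 RPKM, with a highest value of 23.7 (Rpl3). Over the 73 core members, rho between the shared part and the median RPKM was -0.45 (across genes), and over all 89 members it was -0.20. Within the same lists, the median gene had 10.6 RPKM among the members, 76.4 in the respiratory chain and 88.7 in the proteasome. It was 9.19 RPKM among the mitochondrial ribosomal protein genes, which is under the members although their median shared part is 0%. Near copies with a mismatch were not counted, and the part of read placement in these levels was not tested.

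**Figure D4:**
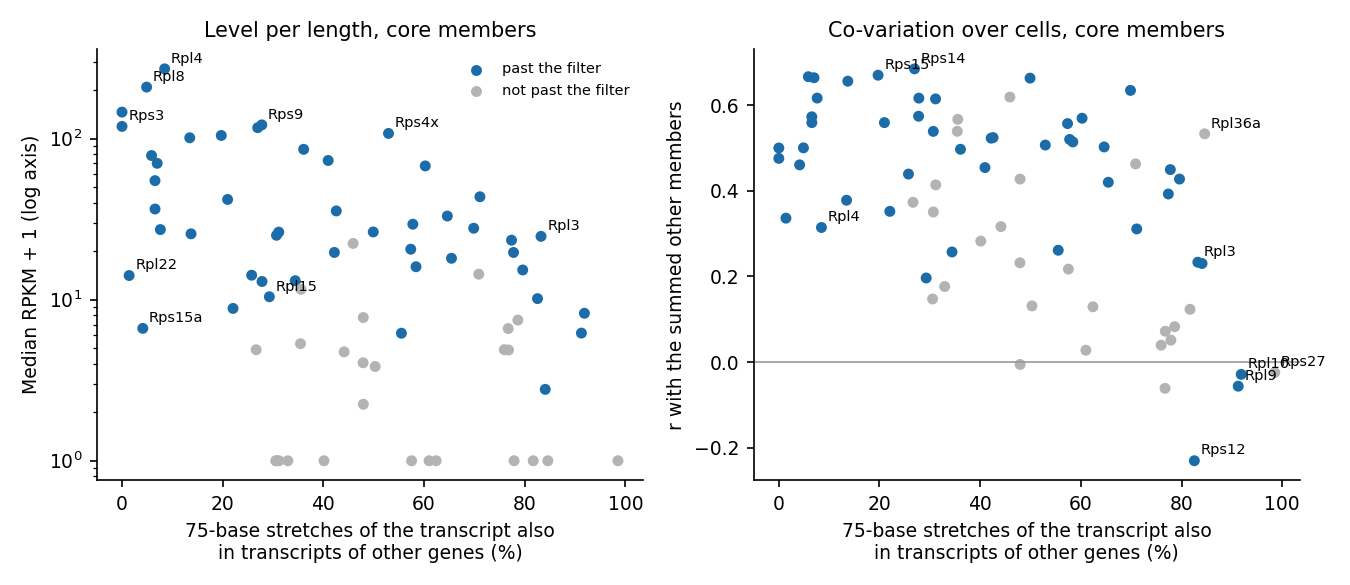
Left, median RPKM + 1 over kept cells (y axis, log axis) of the 73 core members against the share of 75-base stretches of their transcript that also occur in transcripts of other genes (x axis, %); right, Pearson's r over kept cells between each core member and the summed other members against the same measure. Rpl4, Rpl8 and Rps3 lie at the upper left with under 10% shared, and the 3 members past the filter with r below 0 (Rps12, Rpl9 and Rpl10) have 82.5% to 91.9% shared.

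Members varied together over cells to a moderate degree. Over all kept cells, the median Pearson's r of log2(CPM + 1) was 0.25 over the 1431 pairs of 54 members, with quartiles of 0.13 and 0.36. It was 0.06 over all pairs of the 9993 genes past the filter, 0.32 for 79 respiratory chain genes, 0.25 for 35 proteasome genes and 0.21 for 74 mitochondrial ribosomal protein genes. For deviations from the mean of each cell's date and group, the members' median was 0.23. The points share libraries, and values near 0 counts limit r. Rps14 and Rps15, proteins of the platform and the head of the small subunit, and Rpl32 followed the sum of the other members most closely (r of 0.69, 0.67 and 0.67). Rps12, Rpl9 and Rpl10 did not follow it (r of -0.23, -0.06 and -0.03). These 3 had 82.5%, 91.3% and 91.9% of their stretches shared with other genes, and over the 73 core members rho between r and the shared part was -0.51. Below Rpl14 and its pseudogene entry, the closest pairs were Rpl39 with Rps26 (0.72), Rps20 with Rps4x (0.71) and Rps24 with Rps9 (0.71).

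The spread of a single member over cells was wide. Rpl7l1, Rpl15 and Rps4l had SDs of 3.15, 2.95 and 2.75 in log2(CPM + 1). Rpl13, Rpl41 and Rps7 varied least among members past the filter, with 1.28, 1.296 and 1.36. Rpl15 was read in 76 of the kept cells and Rpl7l1 in 65, so their spread includes cells at 0.

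Between areas in L4, members differed little. Differences are of mean log2(CPM + 1), S1 minus V1, and a member was counted when the difference was at least 1, that is 2-fold on this scale, which understates the change of low genes. No member was higher in S1 by that measure (7.64% of the 9993 genes were), and 1 was lower (1.85%, against 7.29% of genes), namely Rps4l at -1.26, which was lower on 3 of 5 dates. The median member was at -0.22 and the median gene at 0.01, and 38 of 54 members were on the lower side, beside 4953 of 9993 genes. Rpl18 (-0.33) and Rpl7 (-0.24), both of the large subunit, were the only members with the same sign on all 5 dates (3.70% of members, beside 6.51% of genes). Their differences within dates were -0.51 ± 0.42 and -0.81 ± 0.89 (mean ± SD over dates), so that of Rpl7 was smaller than its spread.

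In L5 the members lay on the V1 side. Of the 54 members, 12 were at least 2-fold lower in S1 (22.2%, beside 8.96% of all genes) and 1 was higher (1.85%, beside 21.6%). The median member was at -0.44 and the median gene at 0.22. Small subunit core members were lower in S1 for 21 of 23 and large subunit ones for 19 of 24. Of all 54 members 44 were lower, and of the 9993 genes 4060 were. Rpl7, a large subunit protein, had RPKM values of 14.8, 104.8 and 268 (lowest, median, highest) in V1 L5 and of 0, 76.9 and 136.3 in S1 L5. It was read in all 17 V1 L5 cells and in 12 of 16 S1 L5 cells, with overlapping ranges. Its difference was -1.90, and -1.92 ± 0.92 over 4 dates. Rps24, a small subunit protein mutated in human Diamond-Blackfan anemia, had medians of 40.05 RPKM in V1 L5 and 23.4 in S1 L5 and a difference of -1.57 (-1.62 ± 0.88 over dates). Rps9, at medians of 181 and 81.2 RPKM, also differed by -1.57 (-1.50 ± 0.84). In the opposite direction, Rps12 was higher in S1 on all 4 dates, by 0.85 overall and by 0.79 ± 0.57 within dates. The sign was the same on every date for 10 members (18.5%, beside 13.97% of genes), 9 lower in S1 and 1 higher. Of 9 core members listed as Diamond-Blackfan anemia genes, 5 passed the filter. All 5 were lower in S1 and 2 at least 2-fold, beside 44 and 12 of all 54 members. Leaving out date 4 raised the number of members at least 2-fold lower to 20 (37.04%, beside 13.2% of genes), and leaving out date 3 brought it to 8 (14.8%, beside 12.04%), near the share of genes. Without the 9 cells of high microglial marker level, 9 members were at least 2-fold lower in S1 (16.7%, beside 11.9% of genes). The median member was then at -0.06 and the median gene at 0.15. In the cells with no count on a microglial marker (7 in S1, 5 in V1), 11 members were at least 2-fold lower and the median member was at -0.46. The share and median of all genes were not computed for these cells, so these values have no base beside them.

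**Figure D5:**
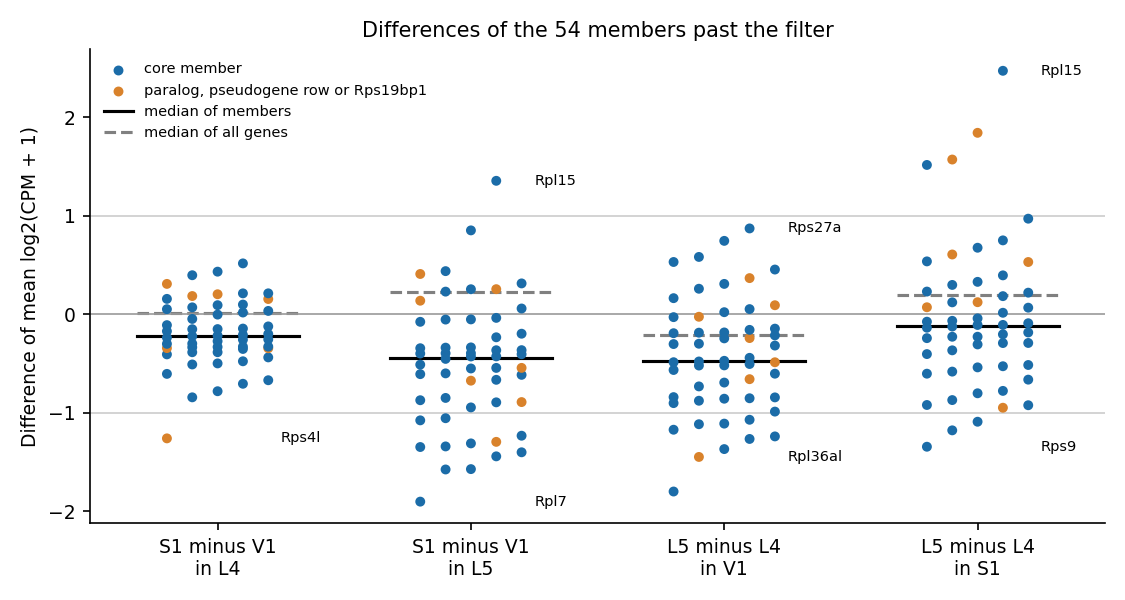
Difference of mean log2(CPM + 1) (y axis) of the 54 members past the filter in the 4 comparisons (x axis); black bars are the median of the members, dashed bars the median of the 9993 genes, and grey lines mark 2-fold. In L5 the median member lies at -0.44 for S1 minus V1 and the median gene at 0.22, and Rpl15 is the highest point for L5 minus L4 in S1, at 2.47.

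Between layers, the shares of members past 2-fold were under those of all genes over all shared dates. In V1, comparing 17 L5 with 7 L4 cells of the same dates, none of the 54 members was at least 2-fold higher in L5 (14.5% of genes) and 9 were lower (16.7%, beside 24.6% of genes), with the median member at -0.47 and the median gene at -0.21. A single sign held on both dates with at least 2 cells of either layer for 18 members (33.3%, beside 46.6% of genes). Rpl36al, a paralog, and Rpl6 and Rpl9 of the large subunit had the largest negative differences among members with the same sign on both dates, -1.45, -1.37 and -1.17, with -1.06 ± 0.36, -1.29 ± 0.29 and -1.43 ± 0.36 within the 2 dates. Rps27a (0.87), Rps9 (0.75) and Rpl27a (0.58) had the largest positive ones, with 1.73 ± 1.15, 1.97 ± 2.60 and 0.55 ± 0.47 within dates, so that of Rps9 was smaller than its spread. Without date 3, 23 members were at least 2-fold lower in L5 (42.6%, beside 28.6% of genes), and without the 9 cells of high microglial marker level 15 were (27.8%, beside 24.7%), so their share then exceeded that of genes.

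In S1, comparing 16 L5 with 12 L4 cells, 4 members were at least 2-fold higher in L5 (7.41%, beside 21.9% of genes) and 3 were lower (5.56%, beside 11.9%), with the median member at -0.12 and the median gene at 0.20. Rpl15, a large subunit protein (chr14:18267823-18271391), had values of 0, 36.1 and 115.3 RPKM (lowest, median, highest) in all S1 L5 cells and 0, 3.47 and 170 in all S1 L4 cells. It was read in 15 of 16 L5 cells and in 21 of 34 L4 cells, and the ranges overlapped. Its difference, L5 minus L4 within the shared dates, was 2.47, and 3.17 ± 1.92 over 3 dates with the same sign on each. Among members with the same sign on all 3 dates, Rps7 (0.97) and Rpl29 (0.68) followed, while Rpl7l1 (1.84), Rps4l (1.57) and Rpl27a (1.52) were at least 2-fold higher with mixed signs over dates, and Rps9 (-1.34) and Rpl7 (-1.18) were lower in L5 on all 3 dates. A single sign held on all 3 dates for 13 members (24.1%, beside 26.1% of genes). Rps9 was at -0.99 ± 0.66 within the S1 dates, the opposite sign to its V1 value, whose spread was larger than the value. The difference between the areas was not tested.

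Related gene lists gave the context of these values. Of the 9993 genes past the filter, 7.64% were at least 2-fold higher and 7.29% lower in S1 than in V1 in L4. In L5 these shares were 21.6% and 8.96%. Of 15 translation factors with a terminal pyrimidine run, all past the filter, 2 were at least 2-fold lower in S1 than in V1 in L4 and none in L5, where 2 were higher, with medians of -0.40 and 0.01. In the same comparisons, none of the 13 mTOR pathway genes was past 2-fold in L4, and in L5 4 were higher and 1 lower in S1. Of 14 ribosome assembly genes past the filter, 1 was at least 2-fold higher in S1 in L4 and 4 in L5, and none was lower by that measure, with medians of -0.16 and 0.13. The median of the 79 respiratory chain genes past the filter was 0.22 in L4 and -0.42 in L5. The 6 left-out ribosomal proteins past the filter were all lower in S1 L5, 2 of them at least 2-fold, with a median of -0.76. Between layers, the medians of the translation factors were -0.64 in V1 and 0.38 in S1, those of the respiratory chain -0.30 and 0.33, and those of the mitochondrial ribosomal protein genes -0.24 and 0.39. Over all kept cells, immediate early genes, which follow neuronal activity, took 0.676% (V1) and 0.661% (S1) of counts in L4. They took 0.440% and 0.365% in L5. In the 7 V1 L4 cells of the dates that hold V1 L5 cells they took 1.01%. Against these 7 cells, 11 of the 13 past the filter were at least 2-fold lower in L5 of V1, beside 24.6% of all genes. The rho of immediate early genes with the ribosomal protein share over cells was 0.24.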

How the data were processed

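Single SOM+ cells were sequenced as 75-base single-end reads after Smart-seq2-based Patch-seq. The submitters' processing notes name bcl2fastq 2.20, STAR 2.4.2a and mm10. The deposited counts are raw reads per gene from the authors, and the tool that made them and its handling of reads with several places are not given in the sources used here. The deposited RPKM values were made by the authors with rpkmforgenes and NCBI RefSeq models. Here, counts of repeated symbols were summed, and CPM and log2(CPM + 1) were computed from all symbols. Members were compared past a filter of 32 counts in at least 10 cells. Differences within dates needed 2 cells of both groups. Named members were the 5 highest and 5 lowest by median RPKM past the filter, up to 3 of the largest differences in each direction with the same sign on every such date, the 3 highest and 3 lowest by SD and by correlation with the other members, paralogs, pseudogene entries and X-linked members; others were chosen after their values were seen. Cells were thinned with random seed 1. Shared stretches are exact 75-base copies in GENCODE M21 transcripts of genes that do not overlap the member. Promoter sequences are from RefSeq, for 64 members. Intervals are 95% exact Clopper-Pearson intervals, which cover counting error only, since reads carried no molecular identifiers. Members and lists were chosen with earlier results of these data known. Alternatives included deposited RPKM, edgeR's TMM scaling, other pseudocounts and filters, and leaving out dates. Scripts were tested on simulated data and ran in Python 3.11.15 (with SciPy 1.17.1 for intervals and correlations, NumPy 2.4.6 for arrays, pandas 2.3.3 for tables and figures by matplotlib 3.10.9), with edgeR 4.0.16 under R 4.3.3. A few members and related genes that the naming rule selects are not reported here.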

Additional observations from a re-analysis of the deposited data

How the results depend on the processing

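Of the values that answer a comparison, 253 stayed within their limits under the alternatives and 38 moved, and the cause was not tested. The limit was the SD over cells or dates for shares, differences, medians and detection. It was a fixed fold for counts, correlations and sums of squares. A change of sign within that SD was therefore not counted as a move. As a share of summed RPKM, the members held 0.924% (V1) and 0.784% (S1) in L4 and 1.13% (V1) and 0.843% (S1) in L5. The number of members at least 2-fold lower in S1 L4 than in V1 L4 was 4 with a pseudocount of 0.1 (beside 15.4% of genes) and 0 with 10 (0.921%). For S1 minus V1 in L5, 2 were higher with RPKM (13.96%), 2 with a pseudocount of 0.1 (33.7%) and 0 with 10 (5.08%), and 2 were lower with 10 (1.97%). For L5 minus L4 in V1, 1 was higher with a pseudocount of 0.1 (20.004%). Without the cells of at least 1000 CPM of microglial markers, 3 were (19.8%). In the same comparison 15 were lower with a pseudocount of 0.1 (35.1%), 1 with 10 (10.02%) and 15 without those cells (24.7%). With a filter of 1 count, which keeps more members, 16 were lower, and the share of genes was not computed. For L5 minus L4 in S1, 7 were higher with a pseudocount of 0.1 (33.3% of genes) and 1 with 10 (6.18%), and 5 were lower with RPKM (8.29%), 13 with 0.1 (17.9%), 0 with 10 (3.96%) and 8 without those cells (12.9%). Without those cells, a setting chosen after seeing the data, dates held 27.05% of the sum of squares in V1 L4 and 12.9% in V1 L5. Leaving out each date in turn gave 0 to 6 members lower for S1 minus V1 in L4. The 6 were without date 7 (11.1%, beside 10.8% of genes). In L5 it gave 0 to 2 higher (2 without date 3, beside 22.02% of genes). It gave 8 to 20 lower there (20 without date 4, 37.04%, beside 13.2%). For the layers in V1 it gave 0 to 6 higher (6 without date 5, 11.1%, beside 25.7%). It gave 7 to 23 lower there (23 without date 3, 42.6%, beside 28.6%, and 7 without date 6, 12.96%, beside 31.1%). In S1 it gave 3 to 7 higher (7 without date 6, 12.96%, beside 24.04%). It gave 3 to 8 lower there (8 without date 4, 14.8%, beside 17.1%). For named members, 17 values came past 2-fold and 10 fell short of it. A change of sign was counted only for members at least 2-fold in the main setting, and 0 of these had one. No replicate block was fitted, since no test was run, and paired differences within dates are given as descriptions. The 26 core members under the filter had 82 to 1089 counts over all kept cells, and a median of 49.1% of their stretches was shared, against 34.4% past the filter.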

Other observations

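The cells left out of the groups had these shares of counts on ribosomal protein members. The 4 S1 L4 cells without an Sst count had 0.339%, 0.258%, 0.247% and 0.379%, with 844, 601, 2662 and 29 counts of Pvalb, the marker of another interneuron class. The V1 L5 cell with more Slc17a7 than Gad1 plus Gad2 counts had 0.166% (95% exact Clopper-Pearson interval 0.157 to 0.175%, counting error only). Of the cells under 1500 detected genes, 1 V1 L4 cell with 745 genes had 0.563% and another with 1153 genes had 0.863%. The remaining pair had 1 member count of 580 (S1 L4) and 5 of 1378 (V1 L5).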
